A study of Mus musculus with 16 samples.

Results

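Target genes of p53 and genes of the DNA damage response were described in livers and liver tumours of mice that lack Axin1 in hepatocytes. The 34 genes on this list are textbook p53 targets, regulators and repair genes, chosen by name with earlier results of these data known. Of them, 30 had a probe set with their symbol among the 23279 genes tested. The other 4, Trp53 itself, Gdf15, Bax and Fdxr, were not analysed here. RNA of 16 arrays was measured, 1 array per sample, in male mice aged 16 months. Control liver came from 3 mice described as non-deleted (mice 10, 11 and 12), whose floxed alleles and Cre status the labels do not give. Mutant mice carried floxed Axin1 alleles (Axin1 fl/fl) and Alfp-Cre, a Cre recombinase active in embryonic hepatocytes, and form liver tumours as they age; no agent was given to any group, as far as the labels say. Adjacent liver was the non-tumoral tissue of 5 such mice (121, 123, 124, 1931 and 81), and 8 tumours came from 6 such mice (121 with 3 tumours, 123, 124, 81, 90 and 93). The mean of the 3 tumours of mouse 121 entered as a single value, except where separate tumours or a random block are named. Ranges and medians in tumours are over the 6 mice unless single tumours are named.

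The p53 protein is kept scarce by the ubiquitin ligase Mdm2 and its partner Mdm4. When damage kinases such as Atm and Atr signal DNA breaks or stalled replication, p53 is released and binds paired copies of a short consensus sequence near its targets. Those targets halt the cell cycle (Cdkn1a), feed back on p53 (Mdm2, Ccng1, Ppm1d), start apoptosis (Bbc3, Pmaip1, death receptors) or aid repair (Xpc, Ddb2). In liver, Cdkn1a and its partners are known for restraining hepatocyte division after injury, and several of these genes also answer to signals other than p53. The amount of p53 protein is set mainly after transcription, so arrays do not measure its activity directly.

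Sequences are shown for the members whose promoter windows held the closest matches to the p53 consensus. RefSeq windows (GRCm38.p6, 250 bases before to 50 after a transcription start) were given for 22 of the 30 measured members. A gene can have several annotated starts, and each gene counted by its best window. The 22 members had 33 windows, and the 27025 genes searched had 32851. The search was for 2 copies of the p53 consensus decamer, 0 to 13 bases apart, with the core letters CNNG fixed in each copy; the decamer reads the same on both strands. A match without mismatch was found for 1 of these 22 members (4.55%) and 20 of 27025 genes (0.074%). With up to 1 mismatch the counts were 3 members (13.6%) and 194 genes (0.718%), and with up to 2 they were 4 members (18.2%) and 1272 genes (4.71%). The list was drawn from known p53 targets, so this share is no independent evidence, and a match is a description of letters, not a shown binding site. Below are the 250 bases before the start for Cdkn1a (chr17:29090729-29090978, plus strand, no mismatch, spacer of 12 bases, beginning at position -73) and Ccng1 (chr11:40755287-40755536, minus strand, 1 mismatch, no spacer, beginning at position -195), and the matched stretch alone for Gtse1 (chr15:85859945-85859964, plus strand, 1 mismatch, beginning at position -1) and Sesn1 (chr10:41887253-41887275, plus strand, 2 mismatches, spacer of 3 bases, beginning at position -186). Positions count from the annotated start of the window used, and capitals mark the decamers. Cdkn1a, Gtse1 and Sesn1 each had another window, whose best match had 5 mismatches. The other Cdkn1a start lies downstream, with its 250 bases at chr17:29093519-29093768.
Cdkn1a: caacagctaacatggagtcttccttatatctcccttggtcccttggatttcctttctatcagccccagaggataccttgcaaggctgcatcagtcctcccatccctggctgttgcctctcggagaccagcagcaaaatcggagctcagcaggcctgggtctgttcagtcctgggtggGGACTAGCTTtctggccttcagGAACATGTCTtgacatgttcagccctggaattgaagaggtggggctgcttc
Ccng1: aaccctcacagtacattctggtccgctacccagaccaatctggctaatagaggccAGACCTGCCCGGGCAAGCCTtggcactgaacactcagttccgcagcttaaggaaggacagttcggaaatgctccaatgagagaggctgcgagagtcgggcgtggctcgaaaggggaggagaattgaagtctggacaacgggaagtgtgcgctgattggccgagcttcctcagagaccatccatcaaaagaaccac
Gtse1: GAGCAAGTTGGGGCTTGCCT
Sesn1: GCGCTTGGCCttcAAGCTTGTTT

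Array medians lay between 4.37 and 4.5 on the log2 scale. Axin1, the deleted gene, ran from 5.07 to 5.48 in the 3 control arrays, from 3.90 to 4.39 in adjacent liver and from 3.95 to 4.81 in the 8 tumours, so every array of deleted mice lay below every control. Which exons its probe set reads is not stated. Hepatocyte markers (10 of 10 measured) were abundant on every array, with Alb between 11.9 and 12.6, and their mean ran from 11.6 to 11.8 in control, 11.6 to 11.8 in adjacent liver and 11.1 to 11.7 in tumours. Control 10 stood apart in macrophage markers (mean of 9 genes 8.84, against 5.51 and 6.25 in the other controls) and neutrophil markers (6.25, against 4.07 and 4.17). In whole tissue, fewer cells of a type and less RNA per cell cannot be told apart.

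Between tumour mice and adjacent livers, not paired by mouse, Btg2 (1.90), Psrc1 (1.64), Tnfrsf10b (1.36), Cdkn1a (1.30) and Phlda3 (1.10) had the largest differences. Tnfrsf10b and Phlda3 are among the 12 measured apoptosis members. Of these 12, 7 had positive and 5 negative differences, with a median of 0.03. No member passed the threshold over all genes (limma, adjusted p under 0.05, 0 of 30 members, smallest adjusted p = 0.0613), where 0.155% of all genes passed. At an unadjusted p under 0.05 there were 13 members with a higher mean in tumours (43.3% of 30), where 6.95% of all genes met that mark, and 3 with a lower mean (10%), where 8.32% did. Every tumour mouse lay above every adjacent liver for 3 members, Tnfrsf10b, Ccng1 and Psrc1, a pattern held by 1.12% of all genes, and below for 1, Ei24 (1.11% of all genes). The median log2 difference over the 30 members was 0.25, and over all genes -0.03; 21 members had a positive difference. As no member passed, the differences below are given as values with their SE of the moderated fit.

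**Figure D1:**
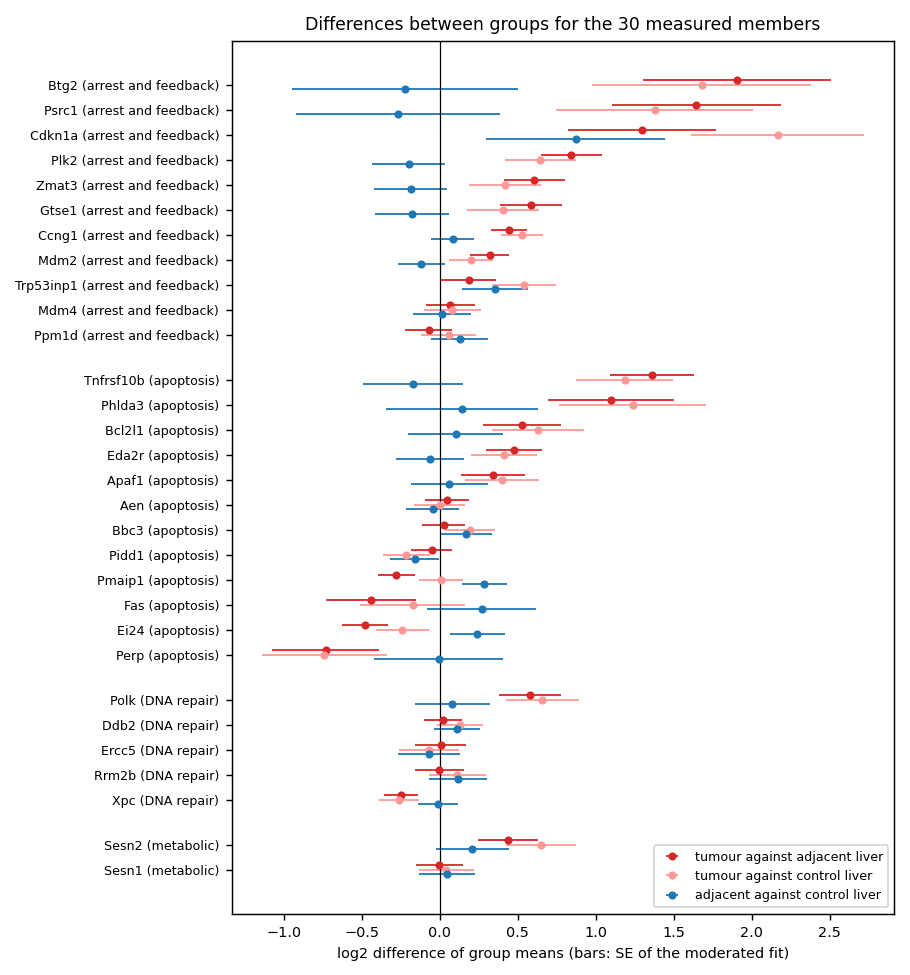
Log2 difference of group means (horizontal axis) with its SE for each of the 30 measured members, ordered by role, in the 3 comparisons; tumours enter 2 of them and controls 2. Arrest and feedback members reach from -0.07 to 1.90 between tumour and adjacent liver (dark red), while the differences between adjacent and control liver (blue) reach from -0.27 to 0.87.

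Among the 11 measured members of cell cycle arrest and p53 feedback, 8 had an unadjusted p under 0.05, all with a higher mean in tumours. Over all genes 6.95% met that mark with a higher mean. The median difference over these 11 members was 0.58. Cdkn1a (Entrez gene 12575), which encodes the kinase inhibitor p21, had log2 values of 8.80, 7.91 and 6.55 in controls 10, 11 and 12, and of 9.94, 8.68, 8.79, 7.62 and 8.07 in adjacent livers 121, 123, 124, 1931 and 81. Over the 6 tumour mice it ran from 8.76 (tumour 93) through a median of 10.06 to 10.95 (tumour 90). Adjacent liver 121 reached into the tumour range, and 3 of 6 tumour mice lay above it. The difference from adjacent liver was 1.30 (SE 0.47, adjusted p = 0.202), that is 2.46-fold. Btg2 (Entrez gene 12227), an antiproliferative factor induced early after stress, had the largest difference of all members, 1.90 (SE 0.60, adjusted p = 0.148). Its values were 7.66, 5.83, 6.30, 5.83 and 6.05 in the same adjacent livers and 7.09, 7.10 and 5.48 in controls, against a range of 6.09 (tumour 124) to 9.81 (tumour 90) and a median of 8.36 in tumours. The groups overlapped through adjacent liver 121 and tumours 124 and 93.

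Ccng1 (Entrez gene 12450), cyclin G1, which steers a phosphatase to Mdm2, had a small difference with little spread. It lay at 8.24, 8.19, 8.04, 8.23 and 8.32 in adjacent liver, at 8.44, 8.11 and 7.82 in controls, and between 8.50 and 8.85 in the 6 tumour mice, with a median of 8.63. All 6 tumour mice were above all adjacent and control livers, although the tumours numbered 2 and 3 of mouse 121 were at 8.19 and 8.41. The difference was 0.45 (SE 0.12, adjusted p = 0.0929). Plk2 (Entrez gene 20620), a polo-like kinase of the stress response, was at 6.09, 6.01, 6.24, 6.17 and 5.38 in adjacent liver and 6.12, 6.45 and 5.97 in controls. In tumours it ran from 6.23 to 7.24 with a median of 6.83, and only tumour 93 lay within the adjacent range. Its difference was 0.84 (SE 0.19, adjusted p = 0.0754). When mouse entered the limma fit as a random replicate block Plk2 passed (0.82, adjusted p = 0.0425); as a fixed term over the 4 paired animals it gave 0.93 and did not pass (adjusted p = 0.187).

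Zmat3, an RNA-binding zinc finger protein, had values of 5.15, 4.82, 5.33, 5.18 and 5.47 in adjacent liver and 5.44, 5.16 and 5.53 in controls. Tumours ran from 5.27 to 6.45 with a median of 5.70, so that 4 of 6 tumour mice lay above both other groups (difference 0.60, SE 0.20, adjusted p = 0.154). Mdm2 (Entrez gene 17246), the ligase that degrades p53 and is itself a target, differed less. It was at 6.87, 6.66, 6.85, 6.72 and 6.76 in adjacent liver, at 6.77, 7.04 and 6.86 in controls, and from 6.81 to 7.36 over the tumour mice with a median of 7.09. Single tumours of mouse 121 were at 7.24, 6.39 and 6.80, so that number 2 lay below every adjacent and control liver. The difference was 0.32 (SE 0.12, adjusted p = 0.227) from adjacent liver and 0.20 (SE 0.14, adjusted p = 0.607) from control liver, where the groups overlapped more. Mdm2 no longer had an unadjusted p under 0.05 with 8 separate tumours, the random replicate block or the fixed one. The remaining feedback genes showed smaller values: Trp53inp1, a stress-induced nuclear protein, was at 0.18 (SE 0.18), Mdm4 at 0.07 (SE 0.16) and the phosphatase gene Ppm1d, which switches off the damage kinases, at -0.07 (SE 0.15).

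The list also holds a pair of microtubule-binding proteins of dividing cells. Psrc1 (Entrez gene 56742) was at 3.54, 4.16, 4.13, 4.20 and 3.74 in adjacent liver and 4.29, 4.02 and 4.34 in controls, below the array medians. Tumour mice ran from 4.27 to 8.18 with a median of 5.08 (number 3 of mouse 121 was at 4.19), and tumours 123 (8.18) and 90 (6.50) held the highest values. The difference was 1.64 (SE 0.54, adjusted p = 0.161). Gtse1 (Entrez gene 29870), which is made in G2 and restrains p53, had 4.67, 4.39, 4.59, 4.63 and 4.47 in adjacent liver and 4.84, 4.41 and 4.95 in controls. Its tumour values ran from 4.53 (tumour 90) to 5.83 (tumour 123) with a median of 5.06, and the difference was 0.58 (SE 0.20, adjusted p = 0.172). Tumour 90 was thus the lowest for Gtse1 and the second highest for Psrc1.

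**Figure D2:**
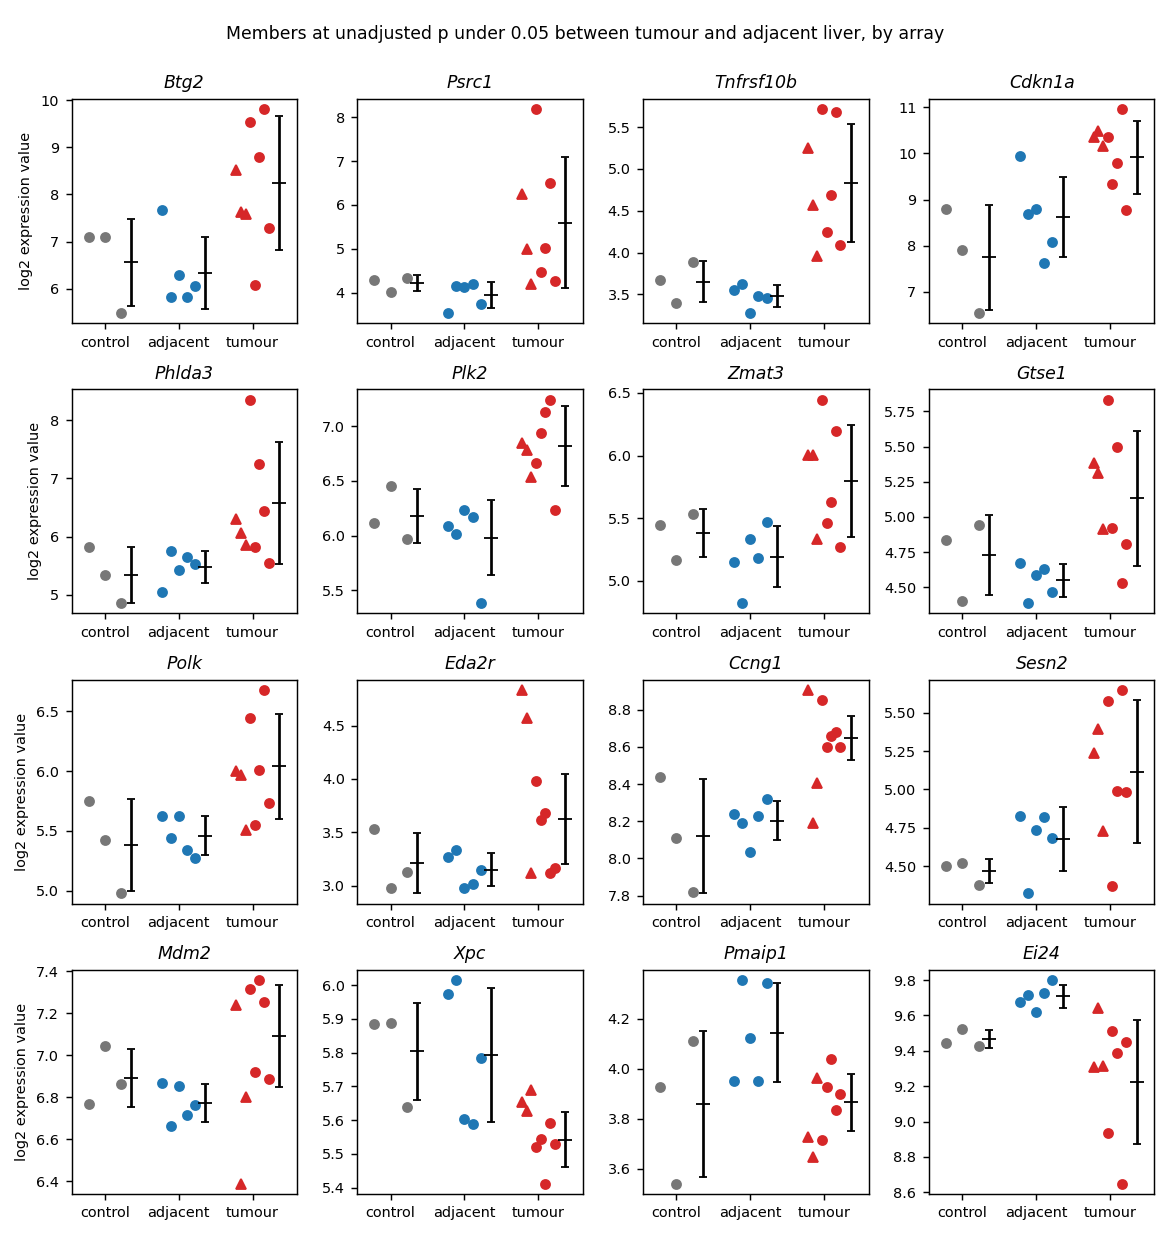
Log2 expression value (vertical axis) of the 16 members at an unadjusted p under 0.05 between tumour and adjacent liver, 1 point per array for control (grey), adjacent (blue) and tumour (red), with triangles for the 3 tumours of mouse 121. Black marks are the mean and SD over mice (n = 3, 5 and 6), and the 8 tumours lie above every adjacent liver for Tnfrsf10b only.

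The 12 measured members of apoptosis went both ways, with 7 positive and 5 negative differences and a median of 0.03. Tnfrsf10b (Entrez gene 21933), the mouse TRAIL death receptor, had the smallest adjusted p of all members. It was at 3.55, 3.63, 3.28, 3.48 and 3.45 in adjacent liver and 3.67, 3.40 and 3.88 in controls, all below the array medians. Tumour mice ran from 4.08 (tumour 93) to 5.71 (tumour 123) with a median of 4.64. The lowest single tumour was number 3 of mouse 121, at 3.96, and each of the 8 tumour arrays lay above every adjacent and control array. The difference was 1.36 (SE 0.27, adjusted p = 0.0613), or 2.57-fold, and a ratio between dim values may be understated. Under the random replicate block Tnfrsf10b passed (1.30, adjusted p = 0.0385), and under the fixed one it did not (1.33, adjusted p = 0.112). It also passed without tumour 93 (1.51, adjusted p = 0.0101), without tumour 124 (adjusted p = 0.0471) and without tumour 90 (1.19, adjusted p = 0.0474). Plk2 passed without tumour 93 as well (0.96, adjusted p = 0.0157). Of all genes, 3.19% passed without tumour 93, 0.185% without tumour 124 and 0.528% without tumour 90, against 0.155% in the main fit. Under the random replicate block 0.885% did.

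Phlda3 (Entrez gene 27280), whose product holds back the kinase Akt at the membrane, was at 5.05, 5.76, 5.42, 5.65 and 5.53 in adjacent liver and 5.82, 5.34 and 4.86 in controls. It ran from 5.54 to 8.35 in tumours with a median of 6.25, and tumours 123 (8.35) and 81 (7.24) were the highest (difference 1.10, SE 0.40, adjusted p = 0.205). Eda2r, the ectodysplasin A2 receptor, was dim, at 3.27, 3.33, 2.98, 3.02 and 3.14 in adjacent liver and 3.53, 2.98 and 3.12 in controls. Over tumour mice it ran from 3.12 to 4.17 with a median of 3.65 (difference 0.47, SE 0.18, adjusted p = 0.22), and 2 of the tumours of mouse 121, at 4.83 and 4.57, were its highest arrays. The 2 receptors and Phlda3 thus shared the direction of most arrest and feedback members. Bcl2l1, which encodes the survival protein Bcl-xL, was at 0.53 (SE 0.25, adjusted p = 0.34), with tumour 90 at 8.33 and the other tumour mice from 6.52 to 7.43. Apaf1, the scaffold of the apoptosome, was at 0.34 (SE 0.20).

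Other apoptosis members lay lower in tumours or showed no clear difference. Ei24 (Entrez gene 13663), an endoplasmic reticulum protein, was at 9.68, 9.71, 9.62, 9.73 and 9.80 in adjacent liver and at 9.45, 9.53 and 9.43 in controls. Its tumour range was 8.65 (tumour 90) to 9.51 with a median of 9.41, below every adjacent liver over mice (difference -0.48, SE 0.15, adjusted p = 0.137). The tumour numbered 2 of mouse 121, at 9.64, lay above adjacent liver 124. Adjacent liver lay above every control for Ei24, while tumours and controls overlapped (difference -0.24, SE 0.17). Pmaip1, which encodes the BH3-only killer Noxa, was at 3.95, 4.35, 4.12, 3.95 and 4.34 in adjacent liver, 3.93, 3.54 and 4.11 in controls and 3.72 to 4.04 in tumours with a median of 3.87 (number 2 of mouse 121 was at 3.65). The difference was -0.28 (SE 0.12, adjusted p = 0.279) from adjacent liver and 0.01 (SE 0.14) from control liver. Perp, a membrane protein of desmosomes, was at -0.73 (SE 0.34, adjusted p = 0.328) with uneven tumours: tumour 90 was at 5.30 and the tumour numbered 2 of mouse 121 at 5.0, whereas the other 6 tumours lay between 6.81 and 7.83 and adjacent livers between 7.34 and 7.83. The death receptor Fas was at -0.44 (SE 0.29), with tumours 90 (5.53) and 81 (5.72) the lowest. The killer gene Bbc3 (Puma) at 0.02 (SE 0.14), the nuclease gene Aen at 0.04 (SE 0.14) and the caspase-2 platform gene Pidd1 at -0.05 (SE 0.13) differed by less than their SE.

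Among 5 DNA repair and nucleotide members the median difference was 0.00. Polk (Entrez gene 27015), a translesion polymerase, was at 5.63, 5.44, 5.63, 5.34 and 5.27 in adjacent liver and 5.75, 5.42 and 4.98 in controls, against 5.55 to 6.68 with a median of 5.91 in tumours (number 3 of mouse 121 was at 5.51). In 5 of 6 tumour mice it lay above every adjacent liver (difference 0.58, SE 0.20, adjusted p = 0.176). Xpc, which finds distorted DNA for nucleotide excision repair, was at 5.97, 6.01, 5.60, 5.59 and 5.78 in adjacent liver, 5.88, 5.89 and 5.64 in controls and 5.41 to 5.66 in tumours with a median of 5.54 (number 3 of mouse 121 was at 5.69; difference -0.25, SE 0.11, adjusted p = 0.279). Its partner in damage recognition Ddb2 was at 0.02 (SE 0.12), the endonuclease gene Ercc5 at 0.00 (SE 0.17) and the ribonucleotide reductase subunit gene Rrm2b at -0.00 (SE 0.16). Of the sestrins, which restrain mTORC1 under stress, Sesn2 was at 4.83, 4.32, 4.73, 4.82 and 4.68 in adjacent liver, 4.50, 4.52 and 4.38 in controls and 4.37 to 5.65 in tumours with a median of 5.05 (difference 0.44, SE 0.19, adjusted p = 0.293). Sesn1, with the matched stretch shown above, was at -0.00 (SE 0.15).

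Each tumour could be set against its own liver in 4 mice (121, 123, 124 and 81; the tumours of mouse 121 averaged). Whether adjacent liver 1931 and tumour 93 came from 1 mouse is not known, and they were not paired. In these, 10 of 30 members were higher in the tumour every time (33.3%, against 9.97% of all genes), and 3 were lower every time (10%, against 13%). Cdkn1a differed by 0.39 in mouse 121, 0.54 in mouse 124, 1.67 in mouse 123 and 1.71 in mouse 81. Tnfrsf10b differed by 1.05, 0.97, 2.08 and 1.23 in the same order. Btg2 was split, at 0.25, -0.21, 3.71 and 2.75. Mice 123 and 81 had the larger differences for these 3 genes, and mouse 124 held the only negative value. The members lower in all 4 were Pmaip1, Ei24 and Xpc. With these 4 mice as a fixed replicate block no member passed (limma, smallest adjusted p = 0.112).

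Tumours differed from one another more than adjacent livers did. The SD over mice was larger in tumours than in adjacent liver for 24 of 30 members (80.0%), and for 57.9% of all genes. Against the adjacent range, 19 members lay above it in tumour 123 (63.3%, where 21.4% of all genes did) and 17 in tumour 90 (56.7%, against 23.3%). In tumour 81 there were 16 members above (53.3%, against 23.1%), in tumour 124 there were 10 (33.3%, against 17.1%) and in tumour 93 there were 7 (23.3%, against 16.6%). Below the adjacent range lay 7 members in tumour 124 (23.3%, against 21.7% of all genes), 6 in tumours 123 and 90 (20%, against 26.4%), 6 in tumour 93 (20%, against 17.3%) and 5 in tumour 81 (16.7%, against 25.4%). The median member sat 0.60 above the adjacent mean in tumour 123, 0.33 in tumour 90, 0.30 in tumour 81, 0.06 in tumour 93 and 0.05 in tumour 124. Control arrays, set against the same adjacent range, had 3 to 8 members above it (10% to 26.7%, against 18.2% to 21.7% of all genes). In control 12, 10 members lay below it (33.3%, against 17.4% of all genes). Controls 10 and 11 each had 5 below (16.7%, against 22.3% and 17.5%). The median member of the control arrays stood from -0.08 to 0.07 relative to the adjacent mean.

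**Figure D3:**
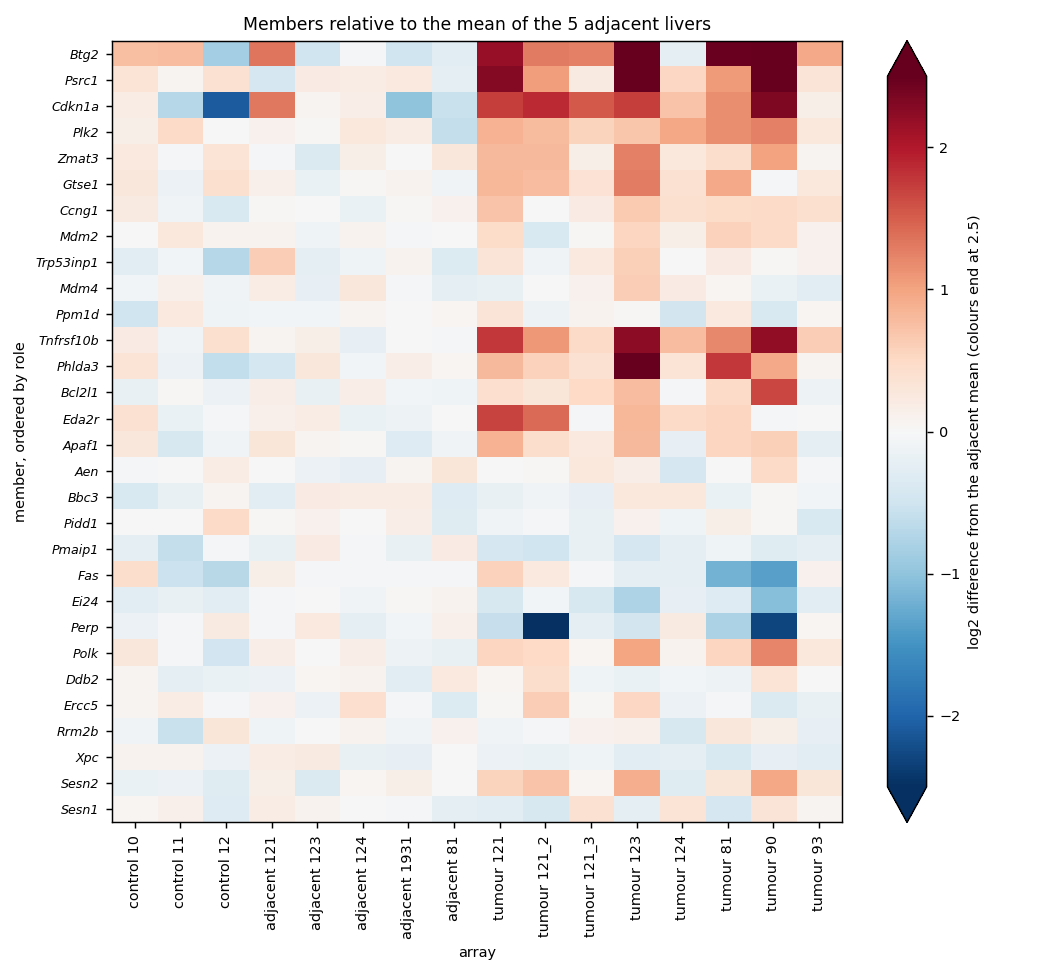
Log2 difference of each member (rows, by role) from the mean of the 5 adjacent livers on each of the 16 arrays (columns); 121_2 and 121_3 are the tumours numbered 2 and 3 of mouse 121. Red cells gather in tumours 121, 123, 81 and 90 for the arrest and feedback members and Tnfrsf10b, while tumours 124 and 93 stay pale. Perp is bluest in tumour 121_2 and in tumour 90.

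The 3 tumours of mouse 121 did not share one level of these genes. The unnumbered tumour had 17 members above the adjacent range, number 2 had 15 and number 3 had 9 (56.7%, 50% and 30%, against 19.4%, 19.1% and 15.7% of all genes), with medians of 0.44, 0.28 and 0.10 above the adjacent mean. Cdkn1a was nearly the same in all 3, at 10.36, 10.48 and 10.15. Psrc1 was at 6.25, 4.99 and 4.19 and Tnfrsf10b at 5.25, 4.57 and 3.96. Eda2r was at 4.83, 4.57 and 3.12, and Perp at 7.01, 5.0 and 7.35. The range within this mouse exceeded the range over the 5 adjacent livers for 15 of 30 members (50.0%), against 34.9% of all genes.

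Other genes of the pathway came from lists written with the members. Of 26 measured regulators of p53 none passed between tumour and adjacent liver (limma, 0 higher and 4 lower at an unadjusted p under 0.05, median -0.01). At that mark 6.95% of all genes were higher and 8.32% lower, and 0.155% passed the adjusted threshold. Hipk2, a kinase that activates p53, was at -0.44 (SE 0.13, adjusted p = 0.141) and Atm at -0.31 (SE 0.11, adjusted p = 0.175). Of 36 further p53 targets none passed either (9 higher, 4 lower, median 0.02), with Ckap2 at 1.42 (SE 0.30, adjusted p = 0.0634) and Ndrg1 at 1.43 (SE 0.32, adjusted p = 0.0718). Break repair and checkpoint genes (33 measured, 0 passed, 3 higher and 1 lower) had a median of 0.07, with the histone gene H2ax at 0.69 (SE 0.21) and Xrcc3 at -0.36 (SE 0.11). Excision, base and mismatch repair genes (30 measured, 0 passed, 3 higher and 4 lower) had a median of 0.04, with Ercc4 at -0.30 (SE 0.11) and Xrcc1 at -0.29 (SE 0.11). Further inhibitors and senescence genes (15 measured, 0 passed, 5 higher) had a median of 0.05, with the inhibitor Cdkn2c at 0.95 (SE 0.20, adjusted p = 0.0634) and the protease Mmp12 at 2.53 (SE 0.59, adjusted p = 0.0764). The repair lists thus had medians near that of all genes.

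Cell cycle genes and genes of the integrated stress response had larger medians than the members. At an unadjusted p under 0.05, 6.95% of all genes were higher in tumours and 8.32% lower. Of 26 cell cycle genes 23 had an unadjusted p under 0.05, all with higher tumour means, and the median was 0.82, with Cdk1 at 2.0 (SE 0.44, adjusted p = 0.0718) and Tpx2 at 1.32 (SE 0.29). Of 17 stress response genes, which act under Atf4 when translation is restrained, 10 did so with a median of 0.70, with Nupr1 at 2.42 (SE 0.56, adjusted p = 0.0754) and Atf3 at 1.01 (SE 0.25); none of either list passed (limma). The lists were distributed differently over the tumours. The cell cycle mean stood 0.70 to 1.72 above the adjacent mean in 7 tumours and at -0.10 in tumour 90. There the arrest and feedback members had their second highest mean, 1.0, after 1.35 in tumour 123. That mean in tumour 90 held Btg2 at 3.47, Psrc1 at 2.55 and Cdkn1a at 2.33. Gtse1, Mdm4 and Ppm1d lay below the adjacent mean, and the other arrest and feedback members stood 0.03 to 1.26 above it. The stress response mean was 1.32, 1.26 and 1.32 in tumours 123, 81 and 90, 0.50 in tumour 124, 0.69 in tumour 93 and between -0.14 and 0.23 in the tumours of mouse 121. In those tumours of mouse 121 the arrest and feedback mean was between 0.43 and 0.94. The part of either list in the members' values was not tested.

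**Figure D4:**
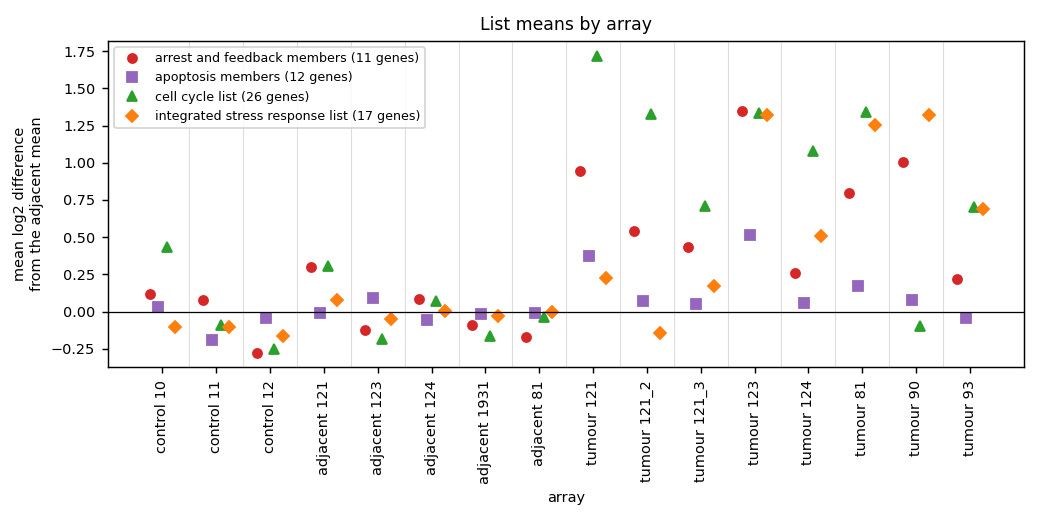
Mean log2 difference from the adjacent mean (vertical axis) on each array for the arrest and feedback members, the apoptosis members, the cell cycle list and the integrated stress response list. Tumour 90 has arrest and feedback members, which include Psrc1 and Gtse1, at 1.0 beside cell cycle genes at -0.10. Tumour 121_2 has the same members at 0.54 beside stress response genes at -0.14.

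Hepatocyte markers had 1 of 10 at an unadjusted p under 0.05 between tumour and adjacent liver, Cyp2e1 at -1.38 (SE 0.52, adjusted p = 0.219). Of all genes, 6.95% were higher and 8.32% lower in tumours at that mark. At the same mark, stellate cell and fibroblast markers were 5 higher and 2 lower in tumours of 10 measured. Their array means ran from 5.51 to 6.64 in adjacent liver and from 6.01 to 6.94 in tumours. Tumour ranges in this paragraph are over the 8 single tumours. Endothelial markers were 4 higher and 3 lower of 10 (6.25 to 6.57 against 5.77 to 6.97), and macrophage markers 1 higher and 3 lower of 9 (5.67 to 7.05 against 5.41 to 6.94). Cholangiocyte markers were 1 higher of 7, Sox9 at 0.89 (SE 0.29, adjusted p = 0.151), with Krt19 between 3.96 and 4.5 in adjacent liver and 3.40 and 5.24 in tumours. Neutrophil and T and NK cell markers had none at that mark of 10 each, and B and plasma cell markers 1 lower of 9 and erythroid markers 1 lower of 4. The part of these cells in the members' values was not tested.

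Against control liver, the largest differences were those of Cdkn1a (2.17), Btg2 (1.68), Psrc1 (1.38), Phlda3 (1.24) and Tnfrsf10b (1.18). The comparison shares its tumours with the previous one. No member passed (limma, 0 of 30, smallest adjusted p = 0.132), where 0.0258% of all genes did. At an unadjusted p under 0.05 there were 10 members with a higher tumour mean (33.3%, against 5.65% of all genes) and 0 with a lower one (against 6.88%). Every tumour mouse lay above every control for Ccng1, Tnfrsf10b and Trp53inp1 (3 members, 10%, against 2.11% of all genes) and below for 0 (against 3.08%). Among the 8 single tumours this held for Tnfrsf10b, while numbers 2 and 3 of mouse 121 for Ccng1 (8.19 and 8.41) and number 2 for Trp53inp1 (8.53) lay below the highest control. The median over members was 0.30 and over all genes -0.04. The smallest adjusted p were those of Cdkn1a, Ccng1 and Tnfrsf10b. Cdkn1a was at 2.17 (SE 0.55, adjusted p = 0.132), where its controls spread from 6.55 to 8.80. Ccng1 was at 0.53 (SE 0.13, adjusted p = 0.132), Tnfrsf10b at 1.18 (SE 0.31, adjusted p = 0.142), Trp53inp1 at 0.54 (SE 0.21, adjusted p = 0.298) and Sesn2 at 0.65 (SE 0.22, adjusted p = 0.247). Tnfrsf10b passed without tumour 93 (1.33, adjusted p = 0.0466), where 1.04% of all genes did, against 0.0258% in the main fit. Without control 12, the control with the lowest Cdkn1a and Btg2, the count at an unadjusted p under 0.05 was 5 in place of 10. The share of all genes at that mark fell as well, to 8.56% from 12.5%.

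Adjacent liver, which carries the Axin1 deletion and lies outside the tumours, overlapped with control liver for 29 of 30 members. No member passed (limma, 0 of 30, adjusted p = 0.999 for each) and 0 met an unadjusted p under 0.05, where 0% of all genes passed and 1.61% with a higher and 2.94% with a lower mean met the unadjusted mark. Adjacent livers lay above every control for 1 member, Ei24 (0.24, SE 0.18; 2.18% of all genes), and below for 0 (2.04% of all genes). The median over members was 0.05, against -0.01 over all genes. Cdkn1a had the largest difference, 0.87 (SE 0.57), followed by Trp53inp1 at 0.36 (SE 0.21) and Pmaip1 at 0.28 (SE 0.14). With 3 controls, differences of the size of these SEs could not be resolved.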

How the data were processed

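Liver RNA was amplified to cDNA, labelled with biotin and hybridised, 1 array per sample, per the labels' protocols. The deposited values are log2 expression values. The submitters' processing notes name RMA and Partek with no version or role; chip and build were not found in the labels or files. Of 24479 probe sets, 23281 had 1 symbol, 0 several and 1198 none in the platform annotation; for 2 symbols with more probe sets the brightest was kept, leaving 23279 genes. No 2 arrays held identical values, and the number of arrays limits precision.

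All 3 groups were fitted together in limma 3.58.1 (R 4.3.3, intensity trend, no block), with Benjamini-Hochberg adjustment across the 23279 genes, after a test on simulated data. Mice are the replicates. Tumour and adjacent liver of 1 number come from 1 animal in 4 mice; such pairs' deviations from their group means had a mean correlation of 0.0789, other pairs -0.0116. The labels give no scan date or slide.

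The members and gene lists were chosen with earlier results of these data known. All measured members are named; array values are given for Cdkn1a, Mdm2 and members at an unadjusted p under 0.05 or without overlap between tumour and adjacent liver, and of each further pathway list the 2 genes with the smallest p are named. Alternatives were quantile normalization, median centring, a filter keeping 12787 genes above 4.45 on at least 3 arrays, averaged probe sets, other variance models, other uses of mouse 121, replicate blocks and each mouse left out.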

Additional observations from a re-analysis of the deposited data

Results flagged for a closer look

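Of 60 groups of adjacent livers or tumour mice, 1 per member and tissue, 5 held a value far from the rest. This was judged by the gap to its neighbour over the range of the group (Dixon's critical value). For normally distributed values chance gives about 1 in 20, and the share over all genes is not given here. Btg2 was at 7.66 in adjacent liver 121, where the other adjacent livers lay between 5.83 and 6.30. Fas was at 7.05 in the same liver, against 6.85 to 6.87 in the others. Sesn2 was at 4.32 in adjacent liver 123, against 4.68 to 4.83, and Plk2 was at 5.38 in adjacent liver 81, against 6.01 to 6.24. Trp53inp1 was at 9.21 in tumour 123, against 8.62 to 8.82 in the other tumour mice. Adjacent liver 121 also had the highest mean among adjacent livers of T and NK cell (5.55), stellate cell (6.64), macrophage (7.05), neutrophil (4.58) and B cell (4.65) markers, where the medians were 4.22, 5.91, 6.07, 4.36 and 4.41; their part in these values was not tested.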

How the results depend on the processing

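Between tumour and adjacent liver, 0 members passed the adjusted threshold. The count was 2 with the filter on low values (Plk2 and Tnfrsf10b; it drops Eda2r, Pmaip1 and Bbc3) and with the random replicate block, 1 with 8 separate tumours and with the unnumbered tumour of mouse 121 only, and 0 to 2 with mice left out in turn. Of the 16 members at an unadjusted p under 0.05, 9 kept it under every alternative in which they were tested, and Cdkn1a, Mdm2, Pmaip1, Polk, Sesn2, Xpc and Zmat3 lost it under at least 1 (Cdkn1a without adjacent liver 1931 only, Polk and Zmat3 under the fixed replicate block only). Members without overlap were 4. With 8 tumours or the random block (the arrays of mouse 121 enter separately) there was 1. The 4 paired mice, with fewer values for every gene, gave 8, and mice left out gave 4 to 6. In all comparisons, the share of all genes without overlap is not given for the alternatives. Against control liver those without overlap were 3. Quantile normalization gave 6, 8 tumours or the random block 1, and mice left out 3 to 7. Members at an unadjusted p under 0.05 ranged from 5 to 15. The share of all genes at that mark ranged from 8.56% (without control 12) to 15.9% (filter on low values). Members past the adjusted threshold ranged from 0 to 1. Between adjacent and control liver 1 member met the unadjusted mark after quantile normalization, median centring or with only the 2 groups compared, and 0 to 1 with mice left out; those without overlap ranged from 1 to 5 and the median over members from -0.0129 (without control 12) to 0.0654. Over all genes the tumour against adjacent count of 36 was 206 with the random block, 181 with the filter and 157 with the unnumbered tumour only. It was 87 with 8 tumours, 23 and 16 after quantile normalization and median centring, and 20 with robust eBayes. With only these 2 groups it was 8 and with the fixed block 0. With mice left out it ran from 5 (without tumour 123, among others) to 743 (without tumour 93). Of 747 values of single members under alternatives in that comparison, 37 had another sign, in 9 members whose difference was at most 0.07 and smaller than its SE; no member with a difference above its SE changed sign in any of the 3 comparisons. Differences of members dim on every array may be understated.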
